A study of Mus musculus with 9 samples.

Results

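The genes described here encode 9 proteins that organize spindle poles without centrioles: Pcnt, Cep192 and Cdk5rap2 of the pericentriolar scaffold, Tubg1 and Nedd1 of microtubule nucleation, Tacc3 and Ckap5 of microtubule growth, Numa1 of pole focusing, and the kinase Plk4. They were chosen by name, with earlier results of these data known, and taken as array rows with exactly 1 gene symbol. They took up 11 of 21789 such rows and were 9 of 19938 genes. Cep192 had 3 rows and every other gene of the set had 1. Genes with several rows were represented by the one whose mean over the 9 oocytes was highest.

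RNA was measured in 9 single metaphase II (MII) oocytes, 1 oocyte per Affymetrix Mouse Gene 1.0 ST array, a whole-transcript array. All oocytes came from female mice of the ICR strain, an outbred stock, aged 2 months. The females received 10 IU of PMSG, which stimulates follicle growth, and 46 hours later 10 IU of hCG, which triggers ovulation, and they were not mated. The groups differed, per the labels, in how the RNA was prepared: 3 oocytes went through the Qiagen RNeasy Mini kit, 3 through the Arcturus PicoPure kit, and 3 were used as crude lysates in NuGEN direct lysis buffer. All were then amplified with NuGEN Ovation One-Direct and biotinylated. Each condition drew on 3 mice, which gave 1 to 3 cells each per the labels, without saying which oocyte came from which mouse. A mouse may have given several of them, so the p-values below measure the spread among these oocytes and not among mice. The hormones were given to all groups and the labels name no other treatment, so the comparisons are between preparations of RNA and not between states of the spindle. As the mice are not tied to oocytes, a part of the mouse in these comparisons cannot be told apart from the preparation.

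Most animal cells build a spindle from centrosomes, in which a pair of centrioles recruits pericentriolar material that nucleates microtubules. Mouse oocytes lose their centrioles before the meiotic divisions, and their spindle instead forms from many acentriolar microtubule organizing centres that carry pericentriolar proteins and are gathered into poles. Many proteins of this machinery are made from maternal mRNA stored in the growing oocyte, and transcription is largely silent at MII.

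Tacc3 and Ckap5 are shown by sequence because their products work as partners on spindle microtubules, with Tacc3 holding the microtubule polymerase Ckap5 (also called chTOG) on the spindle, while their arrays behaved differently here: Tacc3 varied least of the set between oocytes and Ckap5 was higher in every PicoPure oocyte than in every RNeasy oocyte. The windows are the first 250 bases, upstream of the listed start, of the entries in the RefSeq promoter table (GRCm38.p6), 5′ to 3′ on the gene's strand, at chr5:33657878-33658127 (plus strand) for Tacc3 and chr2:91526512-91526761 (plus strand) for Ckap5. Capitals mark matches, on either strand, to 3 motifs: CCAAT (the CCAAT box), TTTGAA (the core of the cell cycle homology region) and GGGCGG (the GC box).
Tacc3: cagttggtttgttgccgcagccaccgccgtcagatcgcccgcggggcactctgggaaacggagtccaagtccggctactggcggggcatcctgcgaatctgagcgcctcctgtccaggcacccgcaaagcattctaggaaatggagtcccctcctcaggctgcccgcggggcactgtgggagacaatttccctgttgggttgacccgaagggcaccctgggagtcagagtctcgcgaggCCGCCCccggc
Ckap5: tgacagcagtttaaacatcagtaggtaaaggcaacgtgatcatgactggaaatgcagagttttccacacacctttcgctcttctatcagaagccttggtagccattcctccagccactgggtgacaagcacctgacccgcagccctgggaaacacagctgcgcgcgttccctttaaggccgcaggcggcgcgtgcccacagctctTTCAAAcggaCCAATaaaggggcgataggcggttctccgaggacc

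The Tacc3 window held 1 match to the GC box, on the minus strand. The Ckap5 window held 1 match to TTTGAA, on the minus strand, and 1 to CCAAT. Base composition differed, with 65.6% G or C for Tacc3 and 55.2% for Ckap5 against a median of 52.4% over 32851 windows of the same length. Windows were found for 6 of the 9 genes (Tacc3, Ckap5, Cdk5rap2, Numa1, Pcnt and Plk4). Among these 6, the GC box was matched in 3 (Cdk5rap2, Pcnt and Tacc3), CCAAT in 1 and TTTGAA in 1, beside 32.7%, 33.8% and 16.0% of all windows. A match is a description of letters. The arrays measured RNA and not binding, and the oocytes were compared for RNA preparation only, so no value below bears on these windows.

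The deposited values are log2 expression levels of 35556 rows. Correlations between arrays ran from 0.954 to 0.978 (Pearson r across genes, which are not independent replicates). As a working limit of background, each array's 95th percentile over 1231 olfactory, vomeronasal and taste receptor genes was taken, which averaged 7.29 over the arrays. The oocyte identity of the samples was checked against 12 oocyte genes, of which 11 lay above this limit on all 9 arrays and Figla on 8. Of 21 measured genes of cumulus and granulosa cells, which surround the oocyte, 3 (Foxl2, Nr5a2 and Fst) lay above it on all arrays, 5 on some and 13 on none, and the mean over the list ran from 6.94 to 7.26 in RNeasy, from 6.87 to 7.0 in PicoPure and from 7.02 to 7.13 in crude lysates. Blood and immune cells were covered by 12 genes, 1 of them (Cd3e) above it on all arrays, 1 on some and 10 on none. Oviduct cells were covered by 9, with 2 (Krt8 and Cdh1) above it on all arrays, 3 on some and 4 on none. Krt8 and Cdh1 averaged 8.48 and 11.62, and whether other cells contributed was not tested. Genes above the limit numbered 9661 to 10751 per RNeasy array, 11000 to 11106 per PicoPure array and 10660 to 11443 per crude lysate. These numbers moved with the preparation, and their part in the results below was not tested.

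All 9 spindle pole organizer genes lay above background on all 9 arrays, where 43.1% of all genes (8597 of 19938) did. With the row of lowest mean in place of the highest, 8 did, the exception being Cep192. The margin over background was smallest for Cep192, at 0.96 log2 units in the nearest oocyte, and largest for Tacc3, at 4.77. The median level over the 9 genes was 10.10, 10.34 and 10.11 in the RNeasy oocytes, 10.55, 10.46 and 10.44 in the PicoPure oocytes and 11.04, 10.69 and 10.19 in the crude lysates. Levels of different probes are not on 1 scale, so levels are compared below mainly within a gene across oocytes. Spreads are also compared between genes, with genes grouped by level to describe them.

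**Figure D1:**
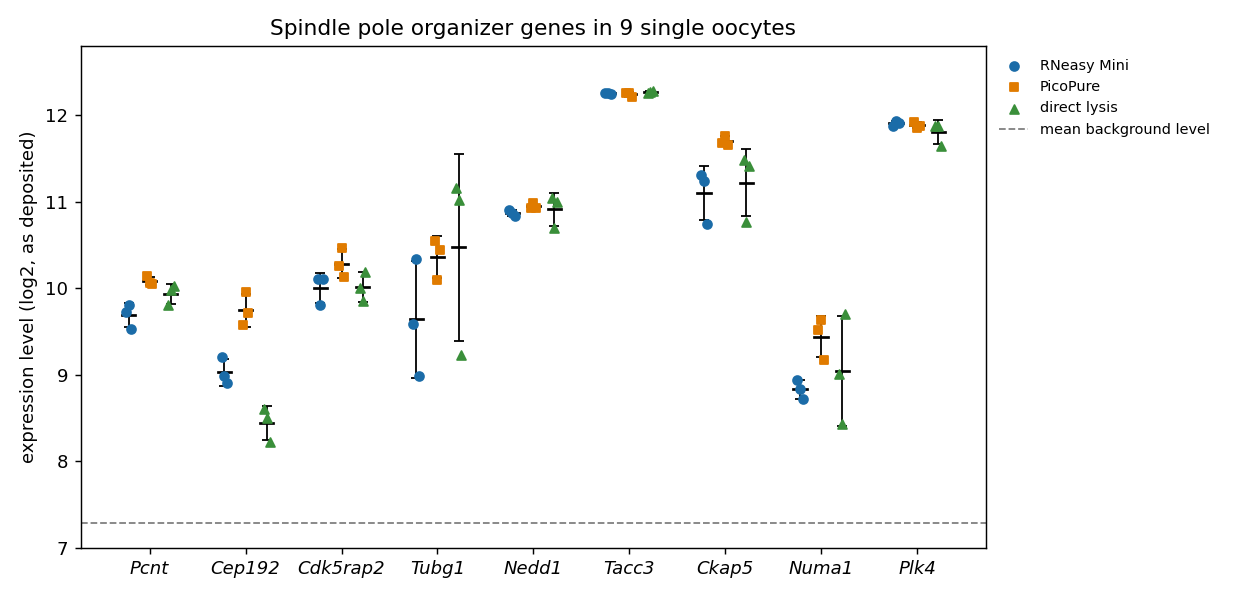
Expression level (log2, as deposited) of each of the 9 genes in each of the 9 oocytes, by preparation, with bars for the mean and SD of 3 oocytes and a dashed line at the mean background of 7.29. Every point lies above that line, the 9 points of Tacc3 nearly coincide, between 12.21 and 12.28, and those of Tubg1 spread from 8.99 to 11.16.

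Among the scaffold genes, Pcnt (pericentrin, the large coiled-coil protein that anchors other pericentriolar components) had levels of 9.73, 9.80 and 9.53 in the RNeasy oocytes, 10.14, 10.06 and 10.05 in the PicoPure oocytes and 9.80, 9.98 and 10.02 in the crude lysates. All 3 PicoPure oocytes lay above all other oocytes, and the RNeasy oocytes were at or below the lowest crude lysate. PicoPure exceeded RNeasy by 0.39 ± 0.09 (SE), which limma's test did not call after adjustment over all genes (adjusted p = 0.324).

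Cep192, which recruits the kinases Aurora A, Plk1 and Plk4 to the centrosome, gave 9.20, 8.98 and 8.90 in the RNeasy oocytes, 9.57, 9.95 and 9.71 in the PicoPure oocytes and 8.60, 8.50 and 8.22 in the crude lysates. The 3 preparations did not overlap at all: every PicoPure oocyte was above every RNeasy oocyte, and every crude lysate was below both. The lowest and highest oocyte differed by 1.73 log2 units, which is 3.32-fold. Cep192 was the single gene of the set that passed the test in any comparison, and in its other 2 rows, described further on, no RNeasy oocyte was above background.

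Cdk5rap2, a scaffold protein that binds and activates the γ-tubulin ring complex, gave 10.10, 9.80 and 10.11 in the RNeasy oocytes, 10.26, 10.46 and 10.13 in the PicoPure oocytes and 10.00, 9.85 and 10.19 in the crude lysates. The PicoPure oocytes lay above all RNeasy oocytes, but narrowly, and overlapped the crude lysates. None of its differences passed the test.

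Of the nucleation genes, Tubg1, which encodes γ-tubulin, the template of microtubule nucleation, varied most between oocytes. Its levels were 9.59, 10.34 and 8.99 with RNeasy, 10.55, 10.09 and 10.44 with PicoPure and 11.16, 11.02 and 9.23 with direct lysis. The range of 2.18 log2 units, or 4.52-fold, lay mostly within preparations: the crude lysates held both the highest and the next to lowest of the 9 oocytes. The mean was 9.64 ± 0.68 (SD, n = 3) with RNeasy, 10.36 ± 0.24 with PicoPure and 10.47 ± 1.08 with direct lysis, and no difference passed the test. The paralog Tubg2 encodes a nearly identical γ-tubulin, and probe sequences were not used here, so how far the arrays separate both genes was not tested. Tubg2 ran from 10.44 to 10.85 over the 9 oocytes, an SD of 0.12, where that of Tubg1 was 0.76.

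Nedd1, the targeting factor that brings the γ-tubulin ring complex to spindles and organizing centres, gave 10.90, 10.87 and 10.83 with RNeasy, 10.93, 10.98 and 10.93 with PicoPure and 11.04, 10.69 and 11 with direct lysis. The crude lysate of replicate 2 lay below all the others. The PicoPure and RNeasy oocytes did not overlap, although their means differed by no more than 0.08 ± 0.10 (SE; adjusted p = 0.867).

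Tacc3, a coiled-coil protein that binds clathrin and Ckap5 and in mouse oocytes belongs to a liquid-like domain of the meiotic spindle, was the steadiest gene of the set. Its levels were 12.26, 12.26 and 12.25 with RNeasy, 12.26, 12.26 and 12.21 with PicoPure and 12.26, 12.27 and 12.28 with direct lysis. All 9 oocytes lay within 0.07 log2 units, or 1.05-fold, and the preparations overlapped. Between crude lysate and purified RNA the 95% interval of the difference was -0.09 to 0.13. Genes at such high levels also had less spread in general, as given below, and the part of the level in this was not tested.

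Ckap5, whose window is printed above, gave 11.31, 11.24 and 10.74 with RNeasy, 11.68, 11.76 and 11.65 with PicoPure and 11.48, 10.77 and 11.41 with direct lysis. The 3 PicoPure oocytes were the highest of all, and 1 RNeasy oocyte (replicate 3) and 1 crude lysate (replicate 2) lay clearly below the rest of their groups. PicoPure exceeded RNeasy by 0.60 ± 0.21 (SE; adjusted p = 0.538 by limma).

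Numa1 encodes the nuclear mitotic apparatus protein, which binds dynein and focuses microtubule minus ends into poles. Its levels were 8.94, 8.83 and 8.72 with RNeasy, 9.52, 9.63 and 9.17 with PicoPure and 9.01, 8.43 and 9.70 with direct lysis. The RNeasy oocytes lay below all PicoPure oocytes, while the crude lysates held both the lowest and the highest of the 9 values. The range over all oocytes was 2.4-fold, and no difference passed the test.

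Plk4, the kinase that starts centriole duplication in centriolar cells and takes part in microtubule nucleation in acentriolar mouse oocytes, gave 11.88, 11.93 and 11.91 with RNeasy, 11.92, 11.85 and 11.88 with PicoPure and 11.88, 11.88 and 11.64 with direct lysis. Except for the crude lysate of replicate 3, which was the lowest, the oocytes lay between 11.85 and 11.93 and the preparations overlapped.

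The design sets crude lysate against purified RNA, and the kits against each other. Differences were tested with limma in 1 fit over all 9 arrays and adjusted by the Benjamini-Hochberg method over all 19938 genes, with a threshold of 0.05. Cep192 was lower in crude lysate than the mean of both purified groups by 0.95 ± 0.12 log2 units (SE), which is 1.93-fold (95% interval of the difference -1.23 to -0.67, adjusted p = 0.0188). It was the 1 gene of the 9 called in this comparison, where 1.01% of all genes were called (201 genes) and 0.667% were called lower. All crude lysates of Cep192 lay below all purified samples, which held for 3.72% of all genes and 5.32% of those above background on all arrays. The other 8 were not called, with adjusted p from 0.556 to 0.997. The median difference of the 9 genes was -0.09, with 4 positive and 5 negative, beside 0.00 over all genes, and with quantile normalization of the arrays it turned to 0.05, with 6 positive and 3 negative.

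Those 8 genes differ in how much their intervals leave possible. The difference between crude lysate and purified RNA lay within -0.09 to 0.13 for Tacc3, -0.19 to 0.19 for Nedd1, -0.13 to 0.24 for Pcnt and -0.26 to 0.06 for Plk4. For Cdk5rap2 it was -0.40 to 0.13. For Tubg1 the interval ran from -0.60 to 1.55, for Numa1 from -0.66 to 0.48 and for Ckap5 from -0.61 to 0.25, and these leave the widest room for a difference that 9 oocytes could not show.

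Set against each kit, Cep192 was called against PicoPure and not against RNeasy. Crude lysate was below PicoPure by 1.31 ± 0.14 (SE), or 2.47-fold (adjusted p = 0.0124), the 1 gene of the set called, where 0.597% of all genes were called and 0.426% were called lower. Crude lysate was below RNeasy by 0.59 ± 0.14 (adjusted p = 0.15), which was not called, as none of the 9 genes was in that comparison (0.436% of all genes, with 2 of the 9 at an unadjusted p under 0.05, beside 13.4% of all genes). These comparisons share arrays and are not independent. In the moderated F test over the 3 preparations, Cep192 passed (adjusted p = 0.026, where 0.637% of genes did) and the other 8 genes had adjusted p from 0.209 to 0.944. The call on crude lysate against purified RNA was lost without RNeasy replicate 1 (adjusted p = 0.055), RNeasy replicate 2 (0.0524) or PicoPure replicate 2 (0.0517), and that against PicoPure without PicoPure replicate 2 (0.0578). The F test was passed in 1 of the 9 fits that each left out 1 oocyte, that without direct lysis replicate 1, with adjusted p from 0.0402 to 0.0858, and was lost with quantile normalization (0.0505), and the call against PicoPure when limma was fitted on those 6 arrays alone.

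Between the kits, the set leaned towards PicoPure without any gene passing the test. PicoPure was above RNeasy in 7 of the 9 genes, beside 41.5% of all genes and 53.6% of those above background on all arrays, with a median difference of 0.39 beside -0.03 over all genes and 0.02 over the genes above background on all arrays. With quantile normalization the median of the 9 was 0.36, with 7 positive. In 6 genes (Pcnt, Cep192, Cdk5rap2, Nedd1, Ckap5 and Numa1) every PicoPure oocyte was above every RNeasy oocyte, where this held for 6.92% of all genes and 13% of the genes above background. None of the 9 was called by limma (0.0602% of all genes were, and 7.98% had an unadjusted p under 0.05), while 3 of the 9 had an unadjusted p under 0.05: Cep192 (0.72 ± 0.14, SE), Pcnt and Ckap5. The exceptions were Tacc3 and Plk4, at -0.01 and -0.02, with overlapping oocytes, and Tubg1, at 0.72 ± 0.54. The difference of Tacc3 was 0.00 when the arrays were centred on their medians.

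The mean of the crude lysates lay between those of the kits for 5 of the 9 genes. Against PicoPure, 7 of the 9 differences were negative, with a median of -0.15, beside 46.7% of all genes and 56.7% of those above background on all arrays. Pcnt, Cep192 and Ckap5 did not overlap, where 7.67% of all genes and 12% of those above background were separate in that direction. With quantile normalization the signs became 4 positive and 5 negative and the median -0.03, Pcnt and Nedd1 changing sign. Against RNeasy, 7 of the 9 were positive with a median of 0.04, beside 48.9% of all genes and 49.4% of those above background on all arrays. Pcnt was higher in every crude lysate and Cep192 lower in every one, where 7.97% of all genes were separate in the first direction and 8.89% in the second. Among the genes above background on all arrays these shares were 8.92% and 10.9%.

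**Figure D2:**
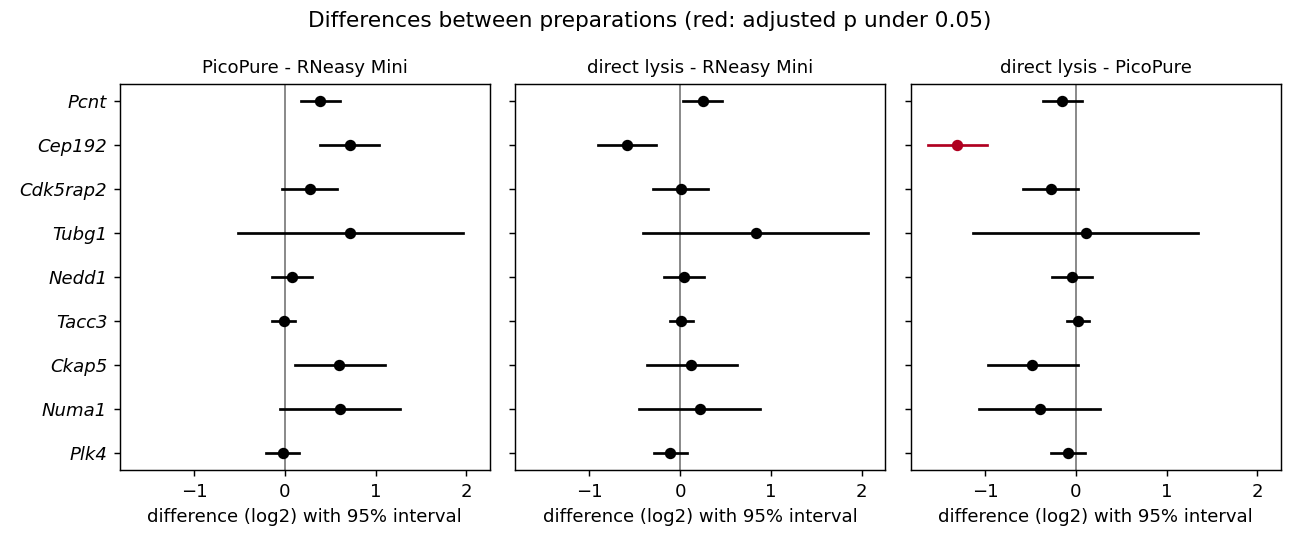
Difference in log2 level between each pair of preparations for the 9 genes, from the limma fit, with 95% intervals (points: estimated differences, in red where the adjusted p was under 0.05). Cep192 between direct lysis and PicoPure, at -1.31, is the single red point, and the widest intervals are those of Tubg1.

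The rows of Cep192 did not show 1 pattern. In row 2 the levels were 6.61, 5.40 and 6.34 with RNeasy, 10.08, 9.82 and 8.0 with PicoPure and 9.05, 7.73 and 8.92 with direct lysis. In row 3 they were 5.81, 4.18 and 6.0 with RNeasy, 8.62, 9.29 and 8.37 with PicoPure and 7.85, 6.43 and 9.40 with direct lysis. In both rows no RNeasy oocyte lay above background and every PicoPure oocyte did, as did all 3 crude lysates in row 2 and 2 of 3 in row 3. The crude lysates above background in these rows were thus above RNeasy, whereas in row 1 every crude lysate was below every RNeasy oocyte.

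As background is only a limit, the folds from the means of 3 oocytes are lower bounds for the RNeasy side. They leave out the spread between oocytes. By these means PicoPure was at least 3.77-fold above RNeasy in row 2 and at least 2.60-fold in row 3. Direct lysis was at least 2.27-fold above RNeasy in row 2. In row 3 direct lysis replicate 2, at 6.43, was itself below background, so no such bound is given there. Adjusted over all 21789 rows with limma, neither row passed any test: for PicoPure against RNeasy the adjusted p was 0.202 and 0.304, and for crude lysate against purified RNA 0.503 and 0.592. With each value below background raised to its array's level (3 of 9 values in row 2 and 4 of 9 in row 3), crude lysate minus purified RNA was 0.23 in row 2 and 0.11 in row 3, and these sizes depend on that level. The mean of PicoPure was above those of RNeasy and direct lysis in all 3 rows. Which parts of the transcript the rows probe is not known from the sources used here, so the lower level in row 1 is a result for that row and not for the gene as a whole.

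**Figure D3:**
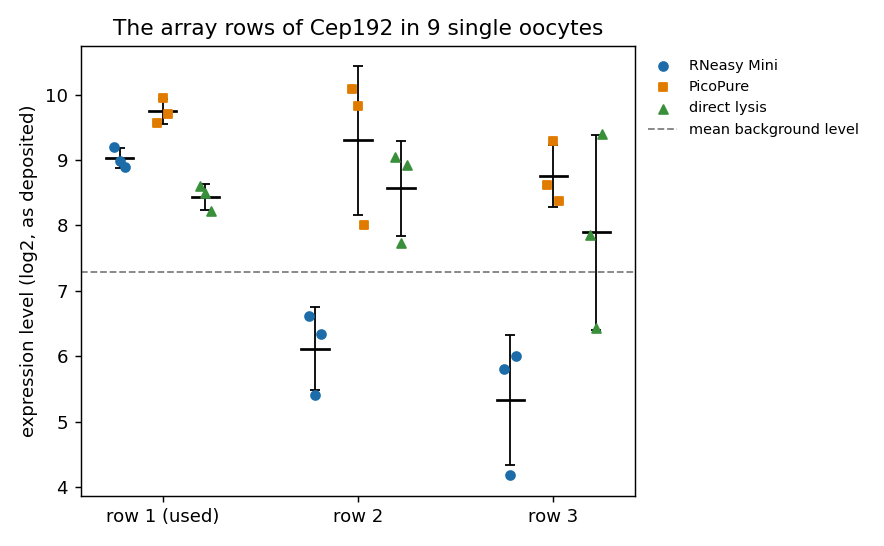
Expression level (log2, as deposited) in the 9 oocytes for the 3 array rows of Cep192, with the mean and SD of each preparation and a dashed line at the mean background of 7.29. In row 1 the crude lysates are lowest, between 8.22 and 8.60, and in rows 2 and 3 all RNeasy oocytes are below the line.

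The genes also differed in how closely oocytes of 1 preparation resembled each other. The SD within preparations, pooled over the 3 groups, was 0.017 for Tacc3, 0.085 for Plk4, 0.107 for Pcnt and 0.114 for Nedd1. It was 0.170 for Cdk5rap2, 0.182 for Cep192, 0.292 for Ckap5 and 0.396 for Numa1, and 0.749 for Tubg1. The median of the 9 was 0.170, beside 0.152 over all genes and 0.193 over the genes above background on all arrays.

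In several genes the SD fell when 1 oocyte was left out. Leaving out the most extreme oocyte lowers an SD by construction, and the same was not counted over all genes. The SD was 0.458 for Tubg1 and 0.0286 for Plk4 without direct lysis replicate 3. It was 0.033 for Nedd1 and 0.203 for Ckap5 without direct lysis replicate 2, and 0.00738 for Tacc3 without PicoPure replicate 3. For Ckap5 the SD also fell, to 0.251, without RNeasy replicate 3. For Numa1 the spread rested on more than 1 crude lysate, as the SD was 0.247 without direct lysis replicate 3 and 0.276 without replicate 2.

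With no oocyte left out, the ends of the set were far out. The SD within preparations lay at percentile 97.1 of all genes for Tubg1 and at percentile 0.166 for Tacc3. Among highly expressed genes the spread was smaller at higher levels: the median SD was 0.15 over the 1194 genes with a mean level between 11 and 12 and 0.0767 over the 419 genes between 12 and 13, and Tacc3 was below both. By preparation, the median SD of the set was 0.055 for the PicoPure oocytes, 0.137 for RNeasy and 0.191 for crude lysates, in the same order as over all genes (0.108, 0.126 and 0.146). RNeasy replicate 3 was the lowest of its group in 7 of the 9 genes, PicoPure replicate 3 in 5 and direct lysis replicate 2 in 4. The same was not counted over all genes, so whether it is particular to the set was not tested. RNeasy replicate 3 and direct lysis replicate 2 also had the fewest genes above background in their groups (9661 and 10660), while PicoPure replicate 3 (11043) did not.

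**Figure D4:**
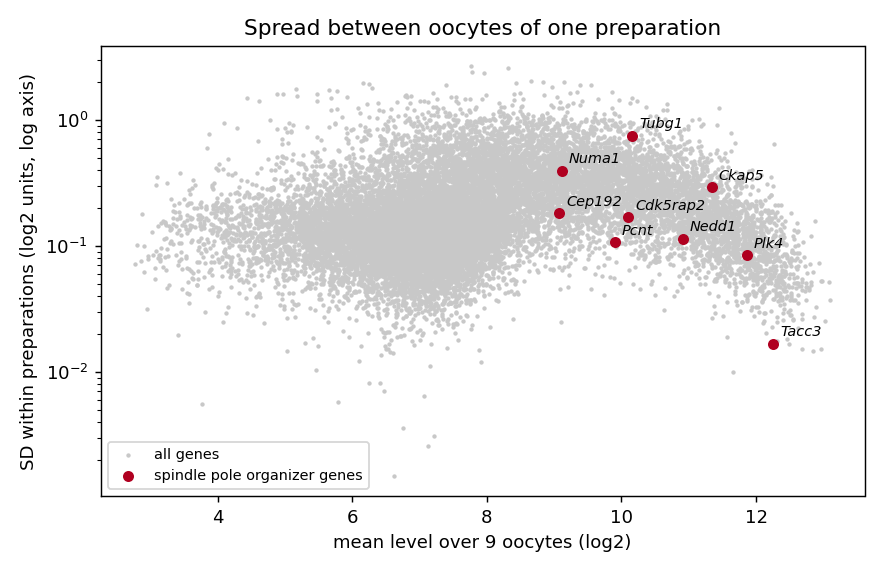
SD between oocytes within preparations (log2 units, log axis) against the mean level over 9 oocytes (log2) for all 19938 genes in grey and the 9 genes in red. Tubg1, at 0.749, lies near the upper edge of the cloud and Tacc3, at 0.017, near the lower edge at its level.

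For the gene with the largest SD and the gene with the smallest p of the F test, the genes most alike over the 9 oocytes were taken, as a description. Tubg1 was nearest to Pcgf1 (Pearson r 0.92), Jmjd6 (0.898) and Fam126b (0.892). Cep192 (row 1) was nearest to Zfc3h1 (0.977), Ezhip (0.96) and Ncoa6 (0.955). These are the highest of 8596 correlations over 9 points that share their preparation.

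The machinery around the 9 genes was measured by 3 lists. Of 15 measured genes of the γ-tubulin ring complex and of augmin, the complex that branches microtubules from microtubules, 8 lay above background on all arrays, 4 on some and 3 (Tubgcp6, Mzt2 and Haus2) on none. None was called in any of the 4 comparisons or the F test, and the median difference was 0.01 (crude lysate minus purified RNA) and 0.03 (PicoPure minus RNeasy). Haus4, an augmin subunit, came nearest: its levels were 8.58, 8.60 and 8.30 with RNeasy, 8.96, 8.97 and 9.05 with PicoPure and 8.95, 9.07 and 8.92 with direct lysis. Both other preparations lay above all RNeasy oocytes, with an adjusted p of 0.0916 in limma's F test. The subunits Haus1 and Haus6 were next, at 0.336 and 0.434.

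Of 25 measured genes of other pericentriolar and spindle pole proteins, 24 lay above background on all arrays, and again none was called. PicoPure was above RNeasy in 20 of the 25, beside 41.5% of all genes and 53.6% of those above background on all arrays, with a median of 0.08. Clasp1, which stabilizes microtubule plus ends, had means of 9.59 ± 0.17 (SD, n = 3) with RNeasy, 10.34 ± 0.12 with PicoPure and 10.11 ± 0.11 with direct lysis, an adjusted p of 0.096 for the kits and 0.0528 for the F test by limma. Tpx2, an activator of Aurora A, had 11.22 ± 0.05, 11.62 ± 0.06 and 11.35 ± 0.09 (adjusted p = 0.177 for the kits). Pcm1, a scaffold of centriolar satellites, differed between crude lysate and purified RNA by -0.23 ± 0.06 (SE; adjusted p = 0.125).

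The 25 genes of centriole duplication and structure, held the only calls of the 3 lists. Of them, 20 lay above background on all arrays, and Stil and Cep97 on none. In all, 3 were called lower in crude lysate than in purified RNA and none higher. Over all genes 0.667% were called lower, as were 114 of the 8597 genes above background on all arrays. The lists were chosen with earlier results of these data known, so these 3 calls are a description and not a test of the list. The median difference of the 25 genes was -0.14. Of the 25 differences 15 were negative, as were 49.4% over all genes and 53.4% of those above background on all arrays. PicoPure was above RNeasy in 21 of the 25, beside 41.5% of all genes and 53.6% of those above background on all arrays, with a median of 0.06 and no call.

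Ccp110, which caps centrioles, gave 10.46, 10.27 and 10.14 with RNeasy, 10.88, 10.74 and 10.91 with PicoPure and 9.35, 9.19 and 9.11 with direct lysis. All crude lysates lay below all purified samples. The difference of the means was 1.35 ± 0.09 (SE), or 2.55-fold (adjusted p = 0.00237 by limma). The same call was made against each kit (adjusted p = 0.0129 against RNeasy and 0.00497 against PicoPure). The 3 preparations of Ccp110 were in the same order as those of Cep192 row 1.

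Cenpj, a centriole length factor that binds tubulin, gave 11.26, 11.11 and 11.29 with RNeasy, 11.11, 11.35 and 11.34 with PicoPure and 10.77, 10.66 and 10.71 with direct lysis. The crude lysates were below all others, and the means differed by 0.53 ± 0.08 (SE), or 1.44-fold (adjusted p = 0.0272 by limma). Cntln, a linker of centriole pairs, gave 7.96, 8.66 and 8.25 with RNeasy, 8.49, 8.04 and 8.39 with PicoPure and 6.92, 7.28 and 6.19 with direct lysis, where no oocyte was above background. By the means, Cntln was at least 2.06-fold lower in crude lysate (adjusted p = 0.0433 by limma), a bound that leaves out the spread between oocytes. Calls on Cenpj and Cntln were each lost in 9 of 16 alternative analyses, and that on Ccp110 in none of 16.

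**Figure D5:**
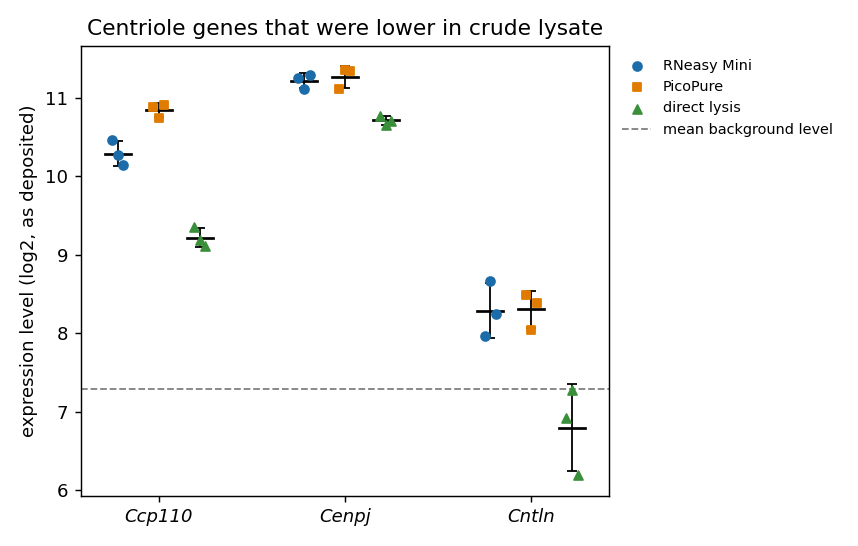
Expression level (log2, as deposited) in the 9 oocytes for the 3 centriole genes called lower in crude lysate, with the mean and SD of each preparation and a dashed line at the mean background of 7.29. The crude lysates are the lowest 3 points for each gene, between 9.11 and 9.35 for Ccp110, and at or below the line for Cntln.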

How the data were processed

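RNA of 9 single oocytes was hybridized to 9 arrays, 3 per preparation, grouped by the sample titles. The deposited values are log2 expression levels per array row, made by the authors. Per the submitters' processing notes, the tools were GCRMA, Affymetrix Expression Console and GCOS, with no order or version. No source states the scale, and log2 was inferred from a range of 2.41 to 13.9 and array medians of 7.12 to 7.24. Scanner files were not used here, and the authors' normalization was taken as it stands. For the genome build, the sources used here give nothing.

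Gene names came from the probe table of the platform, with 21789 of 35556 rows having 1 symbol, 1621 several and 12146 none. Of 19938 genes, 19856 were found in RefSeq (GRCm38.p6) by Entrez ID with 0 symbols changed, and 999 had more than 1 row. No filter on level was applied. Contrasts were fitted with limma 3.58.1 (lmFit, eBayes, default settings) in R 4.3.3, tested on simulated data, two-sided, and adjusted over all genes by the Benjamini-Hochberg method. Residual degrees of freedom were 6. Precision is limited by the number of arrays.

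The genes and lists were chosen with earlier results of these data known. The rule for names took the 9 genes, Tubg2, each list gene past the threshold and 3 per list by the smallest F p, and the 3 most alike genes for 2 of the 9. The alternatives were quantile normalization, median centring, a filter on low levels, values raised to background, other background levels, all rows in place of 1 per gene, another choice of row (added after seeing the data), limma with a trend and robust variance, fits on the compared groups alone, a replicate block and leaving out each oocyte.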

Additional observations from a re-analysis of the deposited data

Results flagged for a closer look

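Over the 9 genes and 2 sets of oocytes (all 9, and the 6 with purified RNA), the lowest and highest oocyte were compared with their nearest neighbour, and 3 of 18 gene and set pairs had an oocyte far from the rest. Chance alone does so in about 1 in 20 groups drawn from 1 population. Here the 6 oocytes are part of the 9, which pool 3 preparations, so whether 3 of 18 exceeds chance was not tested. For Tacc3, the lowest of all oocytes was PicoPure replicate 3, at 12.21 on the log2 scale where the next was 12.25, and the same oocyte, at 12.21, also stood apart among the oocytes with purified RNA. The gap is small in size, since all 9 oocytes lie within 1.05-fold. For Plk4, the lowest of all oocytes was direct lysis replicate 3, at 11.64, where the next was 11.85.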

How the results depend on the processing

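Counts of the 9 genes called were 0 in every alternative for PicoPure against RNeasy and for direct lysis against RNeasy. The single call on Cep192 became 0 with the row of lowest mean for crude lysate against purified RNA, for direct lysis against PicoPure and in the F test, an alternative chosen after seeing the data. It became 0 with quantile normalization in the F test (adjusted p = 0.0505 by limma) and, on the arrays of the compared groups alone, for direct lysis against PicoPure. Leaving out single oocytes, the count ran from 0 to 1 in these 3 tests, and in the F test Cep192 passed in 1 of 9. Differences that changed sign had not passed the test, except Cep192. With quantile normalization these were Cdk5rap2 (0.039) and Numa1 (0.0547) for crude lysate against purified RNA, and Pcnt (0.0421) and Nedd1 (0.101) for direct lysis against PicoPure. With arrays centred on their medians they were Nedd1 against purified RNA (-0.0196), Tacc3 between the kits (0.00127), Cdk5rap2 against RNeasy (-0.00638) and Tacc3 against PicoPure (-0.000318). With the row of lowest mean, Cep192 gave 0.845 against purified RNA and 2.56 against RNeasy, but 4 of the 9 values there, all RNeasy values among them, are below background. With these raised to background the differences were 0.11 and 0.79.

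Without single oocytes, crude lysate minus purified RNA ran from -0.0648 to 0.11 for Nedd1, -0.308 to 0.0477 for Ckap5 and -0.414 to 0.216 for Numa1. PicoPure minus RNeasy ran from -0.0208 to 0.00219 for Tacc3. Direct lysis minus RNeasy ran from -0.0963 to 0.0865 for Cdk5rap2, -0.024 to 0.151 for Nedd1, -0.0562 to 0.349 for Ckap5 and -0.11 to 0.52 for Numa1. Direct lysis minus PicoPure ran from -0.236 to 0.733 for Tubg1 and -0.106 to 0.0695 for Nedd1. The cause was not tested. Over all genes, 12 calls between the kits became 0 with trend and robust variance, and on the compared groups alone 12, 87 and 119 calls became 0, 3 and 0 (kits, direct lysis against RNeasy and against PicoPure). Without single oocytes the counts ran from 24 to 232 for crude lysate against purified RNA, 0 to 15 between the kits, 3 to 95 against RNeasy, 14 to 123 against PicoPure and 4 to 96 in the F test, and the centriole list's count from 1 to 3.

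Replicate numbers are shared by the groups but were not found to pair the oocytes: same-numbered arrays correlated at -0.0676 to 0.115 and others at -0.0928 to 0.139 in their deviations from the group means, and 1 array correlated best with its own number in both other groups. With the replicate number as a block, 0 of the 9 genes were called for crude lysate against purified RNA (Cep192 adjusted p = 0.068), for direct lysis against PicoPure (0.0665) and in the F test (0.0899). Over all genes the block gave 25 calls in place of 201, 0 in place of 12, 15 in place of 87, 17 in place of 119 and 14 in place of 127, and 1 centriole list gene in place of 3. With 3 oocytes per group and 1 stock of mice, small differences are below what these arrays resolve, and values near background have no known linear range.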
